A study of Mus musculus with 6 samples.

Results

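The genes described here control the making and the removal of lipid peroxides in ferroptosis, a form of cell death that depends on iron. They are the 10 genes Gpx4, Slc7a11, Slc3a2, Aifm2, Dhodh, Gch1, Acsl4, Acsl3, Lpcat3 and Ncoa4, taken by name from a mouse liver table of 16135 genes, and all 10 were in it. RNA came from the liver of ACSS2-flox mice, the control with a floxed Acss2 gene, and of ACSS2-HKO mice, a knockout restricted to hepatocytes. They are called controls and knockouts below where values are listed, always in the order of replicates 1, 2 and 3. ACSS2 is an enzyme that makes acetyl-CoA from acetate, the product of alcohol breakdown. Each genotype had 3 libraries, and both had been kept on a Lieber-DeCarli liquid diet containing ethanol for 10 days and then given 1 ethanol binge. No animals without ethanol were in the samples used here, so every value is a level after alcohol. The Cre driver, age and sex are not given in the labels, and nothing there ties each library to an animal of its own. What the p-values measure is therefore the spread among these samples, part of which can be technical. The liver was sequenced whole, so each value adds up hepatocytes and other liver cells. By design the deletion was restricted to the hepatocytes.

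Values are FPKM, fragments scaled to the length of the gene and to the total of the library, so levels can be set side by side between genes. The libraries held between 33717125 and 39474527 fragments. Acss2 itself stood at 87.8, 61.5 and 58.5 FPKM in controls and at 50.6, 38.4 and 45.7 FPKM in knockouts. The groups did not overlap, and the knockout mean was 0.648 times the control mean. Limma gave a log2 fold change of -0.60 ± 0.21 (adjusted p 0.637). Which cells the remaining Acss2 RNA came from was not tested. A pair of libraries lay away from the rest. On the first principal component ACSS2-flox replicate 1 was at -47.7 and ACSS2-HKO replicate 3 at 27.6, while the other libraries lay between 2.51 and 8.49. The summed level of 9 hepatocyte markers was 60684 to 91129.8 FPKM in controls and 53315 to 60491 FPKM in knockouts. Alb, Apoa1 and Ttr were the most abundant, with the groups apart for Alb and overlapping for Apoa1 and Ttr. Of the 9, 3 had a log2 fold change above 0. The 12 neutrophil markers were led by Lcn2, S100a9 and S100a8. Their sum was 22.1 to 64.0 FPKM in controls and 278 to 6461 FPKM in knockouts. Most of it was Lcn2, at 45.9, 36.7 and 13.6 FPKM in controls and 403, 222 and 6099 FPKM in knockouts. The sum thus mainly follows Lcn2, and which cells its RNA came from was not tested. S100a9 read 9.40, 7.90 and 3.09 FPKM in controls and 15.0, 27.9 and 177 FPKM in knockouts. Only 6 of the 12 averaged 1 FPKM or more. The sum of 13 macrophage markers, led by Lyz2, Cd5l and C1qb, was 466 to 757 FPKM in controls and 883 to 2182 FPKM in knockouts. Sums of lymphocyte, stellate and fibroblast, endothelial, cholangiocyte and erythroid markers overlapped between the groups. No marker of these lists was at 0 in every library. In whole liver, fewer cells of a type and less RNA per cell cannot be told apart, and the part of these marker levels in the results below was not tested.

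Ferroptosis follows when phospholipids with polyunsaturated acyl chains are oxidised faster than the peroxides are removed. Acsl4 and Lpcat3 put such chains into phospholipids, and Ncoa4 carries ferritin to the lysosome, where its iron is released. Gpx4 reduces the lipid peroxides with glutathione, whose cysteine can come from cystine imported by the Slc7a11 and Slc3a2 transporter. Aifm2, Dhodh and Gch1 serve defences that trap lipid radicals without glutathione. Hepatocytes are rich in iron and polyunsaturated lipid, and can also make cysteine from methionine.

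Gpx4 is a selenoprotein, and the stretch around its selenocysteine codon is shown because the genes that make selenocysteine are described further on. The codon is a stop codon read as selenocysteine, in exon 3 of 7 of the transcript Gpx4-201 on the plus strand of chromosome 10 (mm10), at 80054737 to 80054739. It is codon 129 of that transcript. It is in capitals below, with 30 bases on each side, taken from the GENCODE transcript.
Gpx4 selenocysteine codon: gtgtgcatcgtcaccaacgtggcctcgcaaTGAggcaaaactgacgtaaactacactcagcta

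The promoters of Slc7a11 and Slc3a2 are shown because the transporter needs both chains and their RNA levels lay far apart in every library. Both windows run from 250 bases before to 50 bases after a RefSeq start site (GRCm38.p6, the mm10 assembly), 300 bases on the minus strand, at chr3:50443564-50443863 and chr19:8713848-8714147. Capitals mark the C/EBP-ATF response element, letters TGATGNAA on either strand, which factors of the amino acid starvation response can bind.
Slc7a11 promoter: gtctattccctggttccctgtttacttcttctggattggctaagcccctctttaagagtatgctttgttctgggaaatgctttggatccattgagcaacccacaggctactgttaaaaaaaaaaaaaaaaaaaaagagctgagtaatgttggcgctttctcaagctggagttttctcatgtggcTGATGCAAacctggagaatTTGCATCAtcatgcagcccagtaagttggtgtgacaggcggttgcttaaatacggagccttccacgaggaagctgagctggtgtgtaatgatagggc
Slc3a2 promoter: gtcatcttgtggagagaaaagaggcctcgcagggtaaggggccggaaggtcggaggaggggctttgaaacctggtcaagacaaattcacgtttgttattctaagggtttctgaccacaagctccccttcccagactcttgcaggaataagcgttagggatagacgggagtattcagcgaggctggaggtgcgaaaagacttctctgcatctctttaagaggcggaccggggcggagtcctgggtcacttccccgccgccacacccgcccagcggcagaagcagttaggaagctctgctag
The Slc7a11 window holds 2 such elements, with their leading bases at -66 and -47 from the start site, and the Slc3a2 window holds none. Of 32817 promoter windows of the same length, 3.97% held at least 1. A match describes the letters only.

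Levels of the 10 genes spanned from abundant to nearly undetected. Gpx4 was the most abundant at a mean of 328 FPKM over the 6 libraries, in the 98.6th percentile of the table. Gch1 followed at 63.2 FPKM, Lpcat3 at 55.4, Ncoa4 at 19.8, Acsl4 at 11.01, Acsl3 at 8.10, Slc3a2 at 6.84, Aifm2 at 5.64 and Dhodh at 2.83. Slc7a11 was last at 0.0267 FPKM. Gpx4 exceeded Gch1 by 4.01 to 7.60 times within the same library, and their ranges did not overlap. The ranges of Lpcat3 and Ncoa4, of Aifm2 and Dhodh and of Dhodh and Slc7a11 did not overlap either. All other neighbours in this order overlapped in range: Gch1 was above Lpcat3 in 5 of 6 libraries, Acsl4 above Acsl3 in 5 of 6, Ncoa4 above Acsl4 in 6 of 6, Slc3a2 above Aifm2 in 4 of 6 and Acsl3 above Slc3a2 in 3 of 6. The order also depends on the length each gene was divided by. For Slc3a2 that length was 9850 bases against 2813 for its longest coding GENCODE transcript. If every counted fragment lay on the shorter length, its mean would be 23.9 FPKM, above Ncoa4. For Aifm2 it was 5612 against 3086 bases, which on the same condition would give 10.3 FPKM. Where the fragments lay was not tested, and with fewer of them on the shorter length both means would be lower. Acsl3 and Gch1 were divided by exactly the length of 1 transcript.

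None of the 10 genes differed between the genotypes past the threshold. Of them, 9 passed the filter of a mean of 1 FPKM and entered the limma fit, and Slc7a11 did not. At an adjusted p under 0.05 the fit called 0 of the 9, and 0 of all 9818 genes tested (0.0%), the smallest adjusted p of any gene being 0.452. At an unadjusted p under 0.05 it again called 0 of the 9, against 7.59% of all tested genes, 6.09% of them higher in ACSS2-HKO and 1.5% lower. The log2 fold changes (ACSS2-HKO minus ACSS2-flox, on FPKM + 1) were above 0 for 5 of the 9 and below 0 for 4, with a median of 0.02. Of all tested genes 66.0% were above 0, and their median was 0.10. After median-ratio scaling, which moved the median of all genes to -0.01, 3 of the 9 were above 0 and 6 below, against 49.0% of all genes above 0.

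In 2 of the 9 the groups did not overlap: Gpx4 was higher in each ACSS2-HKO library and Acsl3 lower. Among all tested genes 12.5% did not overlap in the higher direction and 2.94% in the lower. After median-ratio scaling those shares were 7.55% and 6.75%. On that scale Gpx4 overlapped, and Acsl3, Lpcat3 and Gch1 were each lower in all ACSS2-HKO libraries.

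**Figure D1:**
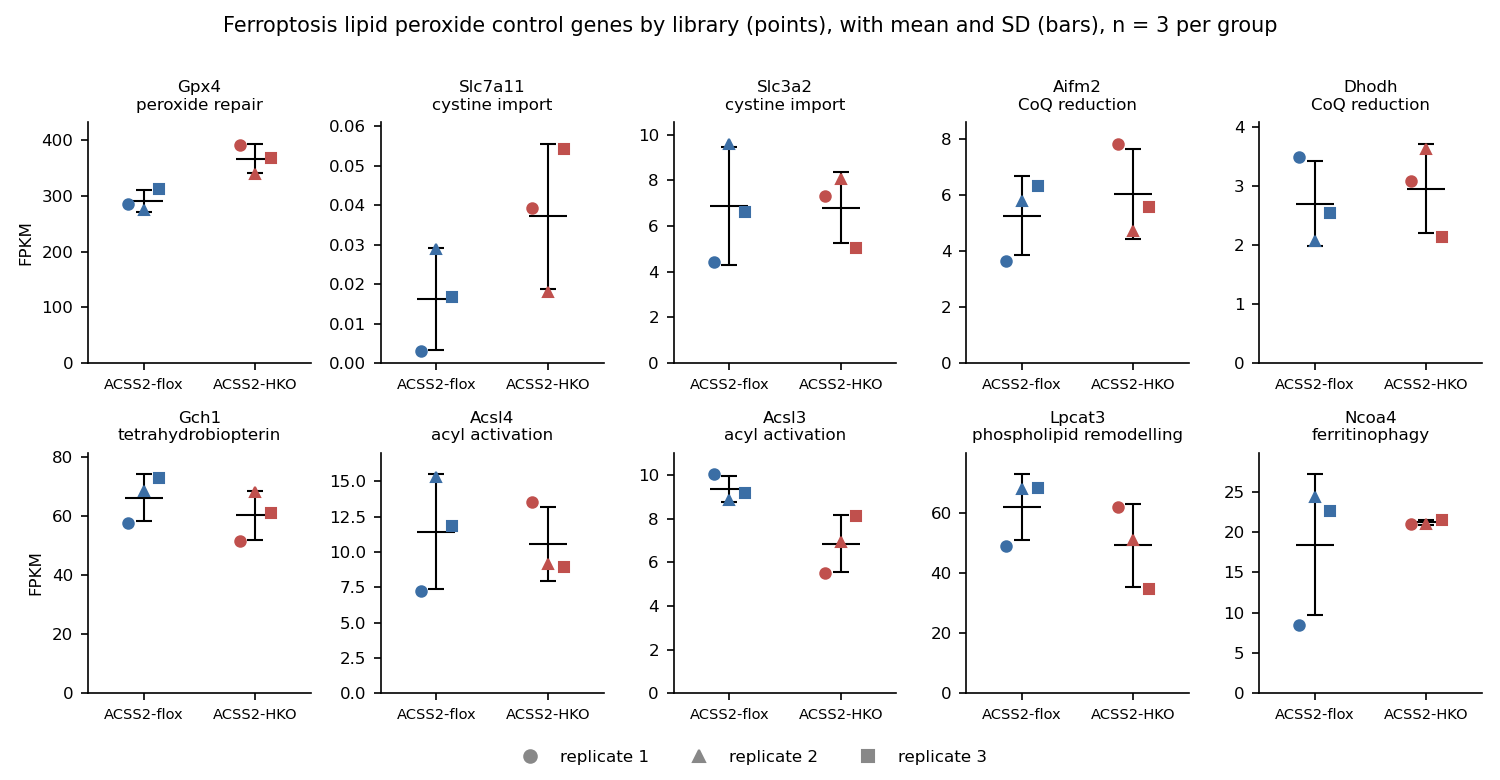
FPKM of each of the 10 genes (vertical axes, each from 0 and on its own scale) in the 3 ACSS2-flox libraries (blue) and the 3 ACSS2-HKO libraries (red); bars give the mean and SD. The points of the genotypes are apart for Gpx4 and Acsl3 and overlap for the other genes.

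**Figure D2:**
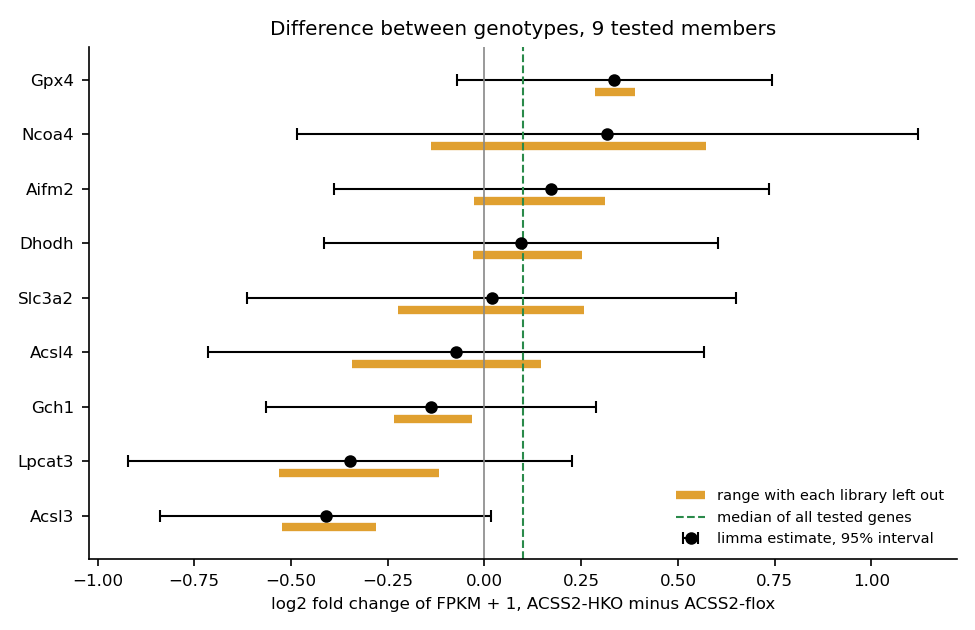
Limma log2 fold change of FPKM + 1 (ACSS2-HKO minus ACSS2-flox) for the 9 tested genes, with its 95% interval in black and the range of estimates with each library left out in orange. Every interval includes 0, and the orange ranges of Gpx4, Gch1, Lpcat3 and Acsl3 lie on 1 side of it.

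Positions of the genes are RefSeq's on GRCm38.p6 (mm10). Gpx4 (chromosome 10, 80047166 to 80056439), the enzyme that reduces peroxidised phospholipids, read 285, 274 and 312 FPKM in controls and 391, 339 and 368 FPKM in knockouts. The lowest ACSS2-HKO library was above the highest ACSS2-flox library, and the means were 290.1 ± 19.9 and 366 ± 26.1 FPKM (SD, n = 3), so knockouts were 1.26 times controls. In limma this was a log2 fold change of 0.34 ± 0.18 (95% interval -0.07 to 0.74, adjusted p 0.675). The exact two-sided permutation p was 0.1, the smallest that 3 libraries against 3 can give. Measured from the median of the tested genes the difference was 0.24, and it was 0.21 after median-ratio scaling, 0.36 after quantile normalization and 0.23 as TPM. With median-ratio scaling ACSS2-flox replicate 1 rose to 353 and lay above ACSS2-HKO replicate 2 at 320.1, so the separation of the groups was lost, while the groups stayed apart after quantile normalization and as TPM. RefSeq lists the pseudogenes Gpx4-ps1 and Gpx4-ps2, and how fragments shared with such copies were counted is not given in the sources used here.

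Slc7a11 (chromosome 3, 50364936 to 50499087), the light chain that exchanges cystine for glutamate, was close to the limit of detection in every library. By the recovery of counts described below, the deposited values correspond to 1, 10 and 6 fragments in controls and 13, 6 and 20 in knockouts. In FPKM these are 0.00318, 0.0288 and 0.0168 against 0.0394, 0.0179 and 0.0543. The groups overlapped, and the exact permutation p was 0.2 (two-sided, n = 3 per group). Summed over libraries there were 17 fragments in ACSS2-flox, with an exact 95% Poisson interval of 9.90 to 27.2, and 39 in ACSS2-HKO, with 27.7 to 53.3. These intervals cover counting error only, not the spread between libraries. Those of single libraries were wide, such as 4.80 to 18.4 for the 10 fragments of ACSS2-flox replicate 2.

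Slc3a2 (chromosome 19, 8706882 to 8723369) encodes the heavy chain, which brings Slc7a11 and several other amino acid transporters to the cell surface. It read 4.42, 9.58 and 6.62 FPKM in controls and 7.31, 8.04 and 5.05 FPKM in knockouts. The ACSS2-HKO values all lay inside the ACSS2-flox range. Its limma log2 fold change of 0.02 ± 0.28 (95% interval -0.61 to 0.65, adjusted p 0.993) turned sign under several alternatives. The 2 chains thus differed in abundance in the same libraries: the FPKM ratio of Slc7a11 to Slc3a2 was 0.000718 to 0.00301 in controls and 0.00223 to 0.0107 in knockouts.

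Aifm2 (chromosome 10, 61715263 to 61739260), also called FSP1, regenerates reduced coenzyme Q outside mitochondria. Its values were 3.65, 5.78 and 6.31 FPKM in controls and 7.81, 4.70 and 5.57 FPKM in knockouts. The highest library was ACSS2-HKO replicate 1 and the lowest ACSS2-flox replicate 1, with the other 4 between 4.70 and 6.31. For Aifm2 the log2 fold change was 0.17 ± 0.25 (95% interval -0.39 to 0.73, limma adjusted p 0.889), and 0.04 with a correction for gene length. Up to 233 bases of a single Aifm2 exon lie opposite an exon of Macroh2a2, which read at a mean of 0.420 FPKM; whether counting used strand is not given in the sources used here.

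Dhodh (chromosome 8, 109593244 to 109608699) makes pyrimidines at the inner mitochondrial membrane and reduces coenzyme Q there. It read 3.49, 2.08 and 2.54 FPKM in controls and 3.09, 3.64 and 2.14 FPKM in knockouts. The genotypes covered nearly the same range. For Dhodh the log2 fold change was 0.09 ± 0.22 (95% interval -0.41 to 0.60, limma adjusted p 0.936). It was 0.40 without both distant libraries (limma unadjusted p 0.0425, adjusted p 0.533), and below 0 after median-ratio scaling, quantile normalization or a length correction.

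Gch1 (chromosome 14, 47153895 to 47189413) is the rate-limiting enzyme of tetrahydrobiopterin synthesis, a cofactor that also acts as a radical-trapping antioxidant. Its values were 57.5, 68.3 and 72.7 FPKM in controls and 51.5, 68.2 and 60.9 FPKM in knockouts. Replicate 1 was the lowest of its genotype in both groups, and the groups overlapped. For Gch1 the log2 fold change was -0.14 ± 0.19 (95% interval -0.56 to 0.29, limma adjusted p 0.881).

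Acsl4 (chromosome X, 142317993 to 142390802) links arachidonic and adrenic acid to coenzyme A, the step that commits them to phospholipids. It read 7.25, 15.3 and 11.8 FPKM in controls and 13.6, 9.16 and 8.97 FPKM in knockouts. The lowest and the highest library were both ACSS2-flox, so the ACSS2-HKO values lay inside their range. For Acsl4 the log2 fold change was -0.07 ± 0.28 (95% interval -0.71 to 0.57, limma adjusted p 0.959).

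Acsl3 (chromosome 1, 78657825 to 78707743) is the related ligase that activates monounsaturated fatty acids such as oleic acid, which displace oxidisable chains. Its values were 10.0, 8.83 and 9.18 FPKM in controls and 5.50, 6.95 and 8.10 FPKM in knockouts. All 3 ACSS2-HKO libraries lay below all 3 ACSS2-flox libraries, and the means were 9.34 ± 0.61 and 6.85 ± 1.30 FPKM (SD, n = 3), so knockouts were 0.733 times controls. Limma estimated a log2 fold change of -0.41 ± 0.19 (95% interval -0.84 to 0.02). The limma p was 0.0581 before and 0.652 after adjustment, and the exact permutation p was 0.1, the smallest possible. The groups stayed apart after median-ratio scaling, after quantile normalization and as TPM. Measured from the median of the tested genes the difference was -0.51 in the deposited FPKM, -0.52 after median-ratio scaling and -0.50 after quantile normalization. Leaving out each library in turn gave -0.52 to -0.28. Without ACSS2-HKO replicate 1, the lowest library, it was -0.28 with an unadjusted limma p of 0.228. An exon of Utp14b shares 140 bases with Acsl3 on the same strand. Utp14b read at 0.810 to 1.63 FPKM in controls and 0.532 to 0.974 FPKM in knockouts, with means of 1.11 and 0.803, and the part of this overlap in the Acsl3 values was not tested.

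Lpcat3 (chromosome 6, 124663094 to 124704716) inserts polyunsaturated acyl chains into lysophospholipids. It read 49.1, 67.8 and 68.4 FPKM in controls and 62.0, 50.8 and 34.5 FPKM in knockouts. ACSS2-flox replicate 1 was below ACSS2-HKO replicates 1 and 2, so the groups overlapped. The means were 61.7 ± 10.9 and 49.1 ± 13.8 FPKM (SD, n = 3). For Lpcat3 the log2 fold change was -0.35 ± 0.25 (95% interval -0.92 to 0.23, limma adjusted p 0.753). Without ACSS2-HKO replicate 3 it was -0.12. Emg1 lies on the opposite strand and shares up to 334 exonic bases with Lpcat3; its groups overlapped, at 29.99 to 40.9 FPKM in controls and 31.4 to 40.3 FPKM in knockouts.

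Ncoa4 (chromosome 14, 32159879 to 32179855), the receptor that takes ferritin into autophagy, had the smallest SD relative to its mean of the tested members in knockouts and the largest in controls. The 3 ACSS2-HKO libraries read 21.0, 21.0 and 21.6 FPKM. ACSS2-flox replicates 2 and 3 read 24.3 and 22.6 FPKM, and replicate 1 read 8.46 FPKM. The groups overlapped, since the ACSS2-HKO values lay between those of ACSS2-flox replicate 1 and the other 2 control libraries. The log2 fold change of 0.32 ± 0.35 (95% interval -0.48 to 1.12, limma adjusted p 0.853) turned to -0.14 without ACSS2-flox replicate 1. RefSeq lists the pseudogene Ncoa4-ps.

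Much of the spread within the controls lay in ACSS2-flox replicate 1. Compared with the mean of ACSS2-flox replicates 2 and 3 on log2(FPKM + 1), that library was lower by over 0.5 for Ncoa4 (-1.37), Acsl4 (-0.81), Slc3a2 (-0.73) and Aifm2 (-0.60). The difference was smaller for Lpcat3 (-0.46), Gch1 (-0.29) and Gpx4 (-0.04), and above 0 for Acsl3 (0.14) and Dhodh (0.45). Over all tested genes the same difference moved with the gene length behind the FPKM. Its median was 0.28 in the shortest 10% of genes, 206 to 1228 bases, and -0.55 in the longest 10%, 7611 to 44826 bases. Gpx4 belongs to the shortest class at 1172 bases, and Slc3a2 is in the longest at 9850. Ncoa4 at 3668 bases was further down than the median of its own class, -0.34, and Acsl3 and Dhodh were above theirs. The part of gene length in each gene's value was not tested. With a loess correction for gene length the estimates of Gpx4 and Acsl3 kept their direction and those of Slc3a2 and Dhodh changed sign.

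**Figure D3:**
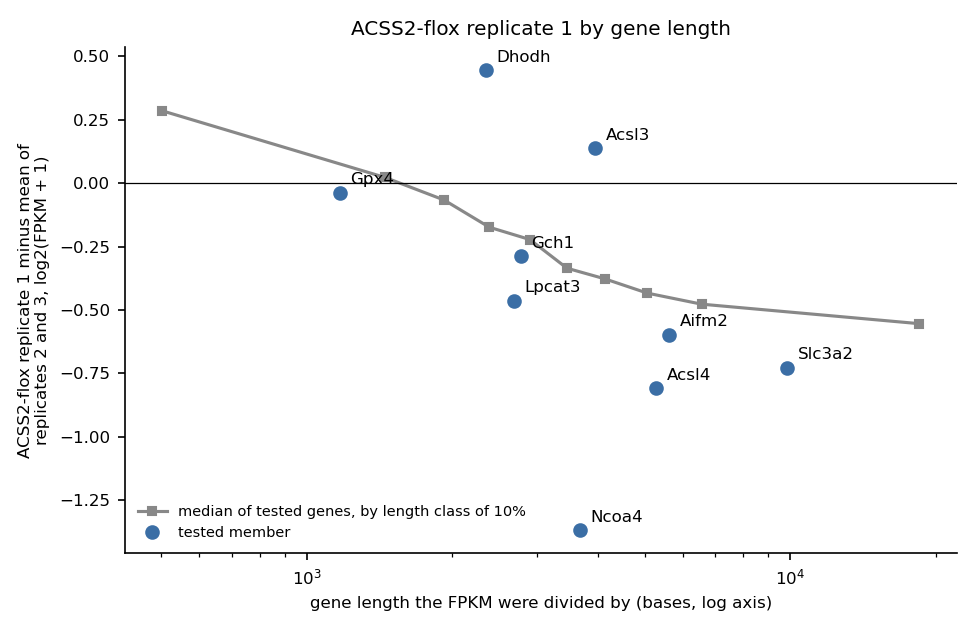
Difference of ACSS2-flox replicate 1 from the mean of the other ACSS2-flox libraries on log2(FPKM + 1), against gene length on a log axis, for the 9 tested genes (blue) and as the median of classes of all tested genes by length, each of 10% (grey). The grey line goes from 0.28 to -0.55, Ncoa4 lies below it at -1.37, and Dhodh at 0.45 and Acsl3 at 0.14 lie above it.

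Among knockouts, replicate 3 had the highest neutrophil and macrophage marker levels and stood apart from its own group in other genes. Against the mean of ACSS2-HKO replicates 1 and 2 it was lower for Lpcat3 (-0.69), Slc3a2 (-0.52), Dhodh (-0.47) and Acsl4 (-0.29), and higher for Acsl3 (0.34). For Gpx4, Gch1 and Ncoa4 it differed by 0.02 to 0.04. With both distant libraries left out, 0 of the tested members passed the adjusted threshold.

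The FPKM ratio of 2 genes within a library does not move with the scaling of that library. The permutation tests of all ratios used log2(FPKM + 1), however, where the pseudocount lets scaling move the difference. The ratio of Acsl4 to Acsl3, the ligases of polyunsaturated and monounsaturated chains, was 0.724, 1.73 and 1.29 in controls and 2.47, 1.32 and 1.11 in knockouts. The groups overlapped, with an exact permutation p of 0.5 (0.75 adjusted over the 3 ratios compared). The ratio of Gpx4 to Acsl4 was 39.2, 17.9 and 26.4 in controls and 28.8, 37.0 and 41.1 in knockouts. Its exact permutation p was 0.3 (0.75 adjusted). As log2 differences of FPKM + 1, Gpx4 to Acsl4 was 0.41 and Acsl4 to Acsl3 was 0.34. With each library left out they ranged from 0.15 to 0.67 and from 0.02 to 0.59. Without ACSS2-flox replicate 1 they were 0.67 and 0.02. For Slc7a11 to Slc3a2 the exact permutation p was 1 (1 adjusted), on log2(FPKM + 1), where Slc7a11 adds almost nothing.

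Across the 6 libraries some of the genes went up and down together. The closest pairs were Slc3a2 with Acsl4 (Pearson r = 0.80 on log2(FPKM + 1)), Aifm2 with Acsl4 (0.80) and Aifm2 with Ncoa4 (0.75). Slc3a2, Aifm2, Acsl4 and Ncoa4 are the tested members for which ACSS2-flox replicate 1 was the lowest of the 6 libraries. The most opposed pair was Gpx4 with Acsl3 (-0.81), the genes whose groups lay apart in opposite directions. These points share libraries, depth and genotype, so the values are a description. The tested genes most like Acsl3 over the 6 libraries were Acadsb (r = 0.991), which oxidises short branched acyl-CoA, Hamp (0.971), the hormone hepcidin that limits iron export, and Tuba1c (0.966), a tubulin. Hamp means were 1696 FPKM in controls and 332 FPKM in knockouts. Those most like Gpx4 were Tmem237 (0.997), Pdlim1 (0.994) and Limk2 (0.982). Those most like Lpcat3 were Colec10 (0.990), R3hdm2 (0.983) and Pdk1 (0.983). They are the highest among 9817 genes compared over only 6 points.

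The genes around these 10 were described through 8 lists with 89 genes, of which 76 were tested. Of the 76, 0 passed the adjusted threshold, 4 were higher and 5 lower at an unadjusted limma p under 0.05, and 44 log2 fold changes were above 0. The groups did not overlap in the higher direction for 5 and in the lower direction for 4. Those 44 compare with the 66.0% of all tested genes above 0, and the shares given above for unadjusted p and for groups that do not overlap are the background of the other counts.

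**Figure D4:**
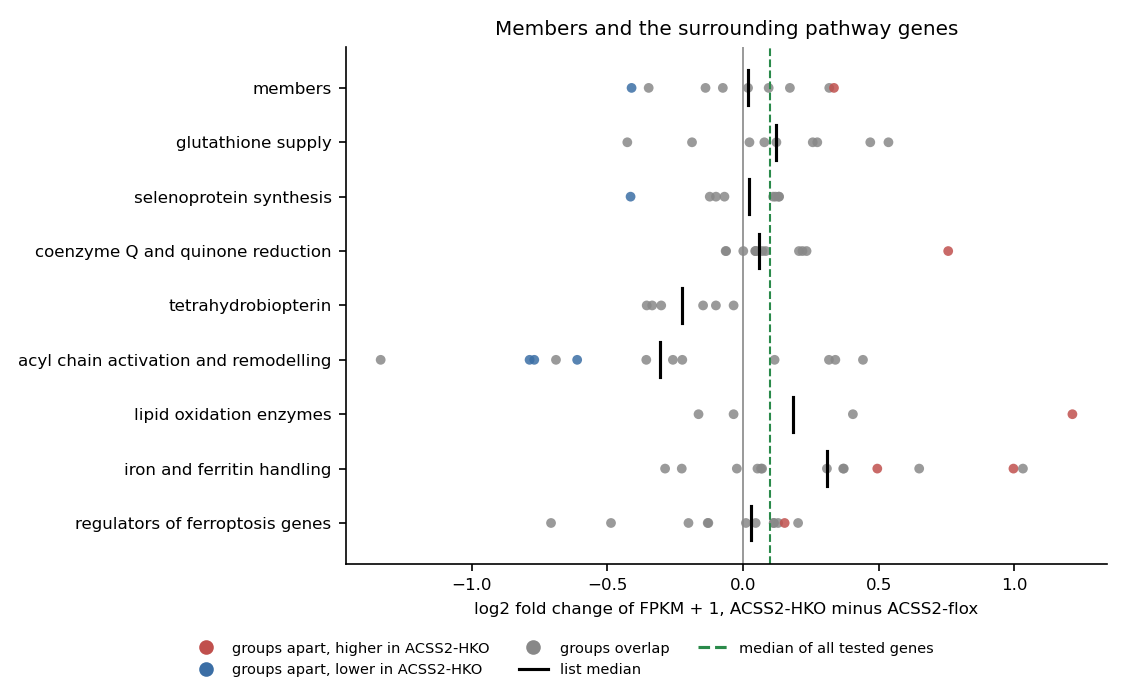
Log2 fold change of FPKM + 1 (ACSS2-HKO minus ACSS2-flox) of each tested gene, by list, with the list median as a black bar and the median of all tested genes (0.10) as a dashed line. Colour marks genes whose groups do not overlap; 3 of them in the acyl chain list are lower, at -0.79, -0.77 and -0.61.

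The list of acyl chain activation and remodelling had the lowest median. It covers genes around Acsl3, Acsl4 and Lpcat3 but not these members, and also desaturases and elongases of fatty acids. Of its 12 tested genes 8 were below 0, with a median of -0.31, and 4 were lower at an unadjusted p under 0.05. Fads1, the delta-5 desaturase that makes arachidonic acid, read 287, 263 and 219.7 FPKM in controls and 161, 156 and 132 FPKM in knockouts. Its groups were well apart, with a log2 fold change of -0.77 ± 0.19 and limma p of 0.00333, 0.554 adjusted. Fads2, the delta-6 desaturase of the same route, read 418, 569.8 and 480.2 FPKM against 401, 238 and 233 FPKM. Limma gave -0.79 ± 0.26 on the log2 scale (adjusted p 0.637), and its groups were apart by less than the spread within ACSS2-HKO. The others of the 4 were Acsl1, the main ligase of long chains in liver, at -0.61, and Scd1, which makes oleic acid, at -1.33 with overlapping groups; both were named after their values were seen. The list median was -0.22 without the 2 distant libraries. Apart from desaturases and elongases, its tested genes lay on both sides of 0. Acsl1, Acsl5 (-0.22) and Pla2g6 (-0.26) had log2 fold changes below 0. Those of Lpcat2 (0.34), Mboat7 (0.12) and Agps (0.32) were above 0. These genes too were named after their values were seen.

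Glutathione supply had 7 of 9 tested genes above 0 (4 after median-ratio scaling), a median of 0.12 (0.01 without the 2 distant libraries) and none with an unadjusted p under 0.05. Gsr, which regenerates reduced glutathione, read 13.6, 23.6 and 17.9 FPKM in controls and 19.7, 27.7 and 29.2 FPKM in knockouts (log2 fold change 0.47 ± 0.24, limma adjusted p 0.673, 0.18 without the 2 distant libraries). The groups overlapped. G6pdx, the source of NADPH in the pentose phosphate pathway, read 3.45, 2.86 and 6.02 FPKM against 4.70, 4.18 and 11.4 FPKM, and its high value was ACSS2-HKO replicate 3 (0.54 ± 0.36, limma adjusted p 0.737). Without that library the estimate was 0.14, and without both distant libraries 0.06. Cth and Cbs, the enzymes of cysteine synthesis from methionine, were named after their values were seen, as the other route to cysteine in a liver with hardly any Slc7a11. Cth read 154 to 159 FPKM in controls and 157 to 161 FPKM in knockouts, with a log2 fold change of 0.02, and Cbs had 0.26.

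Selenoprotein synthesis, on which the codon of Gpx4 depends, was split 4 against 4 around 0, or 2 above and 6 below after median-ratio scaling. Sepsecs, the enzyme that makes selenocysteine on its transfer RNA, read 10.4, 12.5 and 11.6 FPKM in controls and 8.48, 8.78 and 7.83 FPKM in knockouts. All ACSS2-HKO libraries were lower, while Gpx4 itself was higher in all of them in the deposited FPKM. The log2 fold change of Sepsecs was -0.41 ± 0.17, with limma p of 0.0358, 0.637 adjusted. Leaving out each library gave -0.48 to -0.36. Scly, which recovers selenium from selenocysteine, read 35.1 to 39.3 FPKM in controls and 35.3 to 48.8 FPKM in knockouts (0.13 ± 0.18, limma adjusted p 0.885), and ranged from -0.006 to 0.22 with each library left out.

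Coenzyme Q synthesis and quinone reduction, the partners of Aifm2 and Dhodh, had 10 of 12 tested genes above 0 and a median of 0.06, but 4 above 0 after median-ratio scaling (median -0.04) and after quantile normalization. Nqo1, a quinone reductase and a common target of the oxidative stress factor Nrf2, stood apart from that list. It read 6.06, 8.04 and 7.04 FPKM in controls and 13.997, 11.6 and 12.1 FPKM in knockouts. The means were 7.04 ± 0.99 and 12.6 ± 1.27 FPKM (SD, n = 3), so knockouts were 1.78 times controls. Limma estimated 0.76 ± 0.18 on the log2 scale with p of 0.00259, 0.554 adjusted, and 0.67 to 0.84 with each library left out. Coq8b, a kinase-like protein of coenzyme Q synthesis, overlapped between groups (0.23 ± 0.18, limma adjusted p 0.776, 0.07 without the 2 distant libraries). Nfe2l2, the gene of Nrf2 itself, named after its values were seen, had a log2 fold change of 0.01. That is a level of RNA, and the activity of Nrf2 was not measured.

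All 6 tetrahydrobiopterin genes had log2 fold changes below 0 like Gch1 (5 of 6 as TPM), with a median of -0.22, but the median was 0.08 without the 2 distant libraries. Gchfr, the regulator that binds the Gch1 enzyme, read 184, 104 and 148 FPKM in controls and 115, 128 and 95.7 FPKM in knockouts (-0.33 ± 0.24, limma adjusted p 0.755). Qdpr, which recycles tetrahydrobiopterin, read 307, 176 and 277 FPKM against 201, 236 and 168 FPKM (-0.30 ± 0.25, limma adjusted p 0.793). In both genes ACSS2-flox replicate 1 was the highest library, and the groups overlapped. Without the 2 distant libraries the estimates were -0.03 for Gchfr and -0.02 for Qdpr.

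Iron and ferritin handling, the pathway of Ncoa4, had 10 of 13 genes above 0 (7 after median-ratio scaling) and the highest median, 0.31, which was 0.06 without the 2 distant libraries. Tfrc, the transferrin receptor, read 2.06, 1.33 and 3.63 FPKM in controls and 4.01, 5.74 and 6.73 FPKM in knockouts. All ACSS2-HKO libraries were higher, with a log2 fold change of 0.996 ± 0.284 and limma p of 0.00738, 0.607 adjusted. Steap3, an endosomal iron reductase, read 5.21, 3.49 and 3.93 FPKM against 5.96, 6.44 and 6.42 FPKM (0.49 ± 0.19, limma p 0.0276, 0.637 adjusted). The estimates without both distant libraries were 0.82 for Tfrc and 0.61 for Steap3.

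Among lipid oxidation enzymes 4 of 8 were tested, 2 above and 2 below 0. Alox5ap, the protein that presents arachidonic acid to 5-lipoxygenase in myeloid cells, read 3.69, 4.06 and 4.27 FPKM in controls and 5.996, 9.01 and 21.2 FPKM in knockouts. Its highest library, ACSS2-HKO replicate 3, was also the highest in neutrophil markers (all 6 tested of 12 above 0) and macrophage markers (all 12 tested of 13 above 0). Limma gave 1.21 ± 0.38 on the log2 scale with p of 0.0114, 0.637 adjusted, and 0.70 without both distant libraries. The part of those markers in it was not tested. Cyb5r1, a reductase that feeds lipid peroxidation, read 2.41 to 9.51 FPKM in controls and 5.37 to 14.6 FPKM in knockouts (0.40 ± 0.47, limma adjusted p 0.862), and ranged from -0.09 to 0.72 with each library left out. The list median of 0.19 was 0.03 without the 2 distant libraries.

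Of the 12 regulators of ferroptosis genes 7 were above 0 and 5 below (4 and 8 after median-ratio scaling), with a median of 0.03 (-0.21 without the 2 distant libraries) and none with an unadjusted p under 0.05. Srebf1, the lipogenic transcription factor, read 57.6, 36.9 and 71.5 FPKM in controls and 28.0, 58.2 and 33.2 FPKM in knockouts (-0.49 ± 0.32, limma adjusted p 0.734). Its groups overlapped. Yap1, a Hippo pathway coactivator, read 14.4 to 16.6 FPKM in controls and 16.8 to 19.0 FPKM in knockouts (0.15 ± 0.16, limma adjusted p 0.843). Its groups did not overlap, by a margin smaller than the SD of either.

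RefSeq promoter windows were found for 9 of the 10 genes, 14 windows in all. The antioxidant response element core, letters TGACNNNGC on either strand, was in a single window, of Ncoa4 at -44, and 12.4% of all 32817 windows held it. The C/EBP-ATF response element was in the Slc7a11 window alone. The CCAAT box (CCAAT, 37.4% of all windows) was in 7 of the 14 and the GC box (GGGCGG, 35.6%) in 9, also on either strand. Some windows of the same gene overlap, as for Gpx4, so the same site can be counted again. By gene, the CCAAT box was found in 5 and the GC box in 7. That the other windows hold neither response element says only that these letters are not in them.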

How the data were processed

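Whole-liver RNA of 6 libraries, 3 for each genotype, was sequenced, and the genotype label set each group. The authors deposited 1 table of FPKM per gene and library. The submitters' processing notes name the build mm10 and DESeq2 without their roles, and no source used here gives the aligner, counter, annotation or strand setting. FPKM depend on gene length and on the total of the library, so a few abundant genes can lower all others. Whole fragment counts (within 0.01) and library totals that fit the FPKM were found for 16134 of 16135 genes. In simulated data the right counts were found for 94.4% of 1200 genes. For the 961 of them with at least 100 fragments over the 6 libraries the share was 99.3%. Slc7a11 had fewer fragments than that, so its counts are less certain.

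The main test was limma 3.58.1 (R 4.3.3) on log2(FPKM + 1) with a mean-variance trend, two-sided, for the 9818 genes averaging 1 FPKM or more. P-values were adjusted by Benjamini-Hochberg over all of them, with a threshold of 0.05. Standard errors follow ± in log2 fold changes. The pseudocount of 1 shrinks the changes of low genes. Single genes also had exact permutation tests over the 20 arrangements of the libraries. The steps were tested on simulated data. Genes were drawn independently, so differences shared by many genes of a library were not simulated, and rates in these libraries can differ. At the spread observed here for each gene, limma detected 27.8% of 90 genes given a simulated 2-fold difference. With a 4-fold difference it detected 75.5% of 94 genes. At a low simulated spread it detected 100% for either size. Most simulated 2-fold differences were thus missed at the observed spread, so 0 genes past the threshold does not show that none differed.

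The genes, the lists and the alternatives were chosen with earlier results of these data known, so they are no independent support. The rule for naming took the 10 genes, the 2 genes of smallest limma p in each list, the 3 genes most correlated with each of the 3 members of smallest p, Acss2, and the 3 most abundant markers of each cell type list whose sum did not overlap between groups. Macroh2a2, Utp14b and Emg1 are named for exons shared with members, and the genes called under an alternative after their values were seen; others outside the rule are said to be so where named. Titles of both groups carry the numbers 1 to 3, and a fit with that number as a block was an alternative. Other alternatives were pseudocounts, filters, scalings (median-ratio, quantile, TPM), variance models, array weights, voom on the recovered fragments, a loess correction for gene length, and libraries left out.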

Additional observations from a re-analysis of the deposited data

How the results depend on the processing

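No member passed the adjusted threshold under any of the 20 alternatives. Gpx4 stayed above 0 in all of them (0.20 to 0.39), and Acsl3 (-0.54 to -0.28), Lpcat3 (-0.53 to -0.12) and Gch1 (-0.27 to -0.03) stayed below 0. Acsl3 had an unadjusted p under 0.05 in 7 of the 20 (adjusted p 0.326 to 0.9995), Gpx4 in 1 (0.0498 with array weights) and Dhodh in 1 (0.0425 without both distant libraries). The estimates of the other members turned sign, and the cause was not tested. Under median-ratio scaling Slc3a2 was -0.092 and Dhodh -0.010, under quantile normalization -0.117 and -0.088, and with the length correction -0.090 and -0.013. With array weights Slc3a2 was -0.148 and Ncoa4 -0.087, and without both distant libraries -0.051 and -0.150, while Dhodh was 0.29 and 0.40 in these fits. Leaving out each library gave -0.22 to 0.26 for Slc3a2, -0.027 to 0.31 for Aifm2, -0.030 to 0.25 for Dhodh, -0.34 to 0.15 for Acsl4 and -0.14 to 0.57 for Ncoa4. The ratio of Slc7a11 to Slc3a2 moved between -0.22 and 0.24 (log2 difference of FPKM + 1, which follows Slc3a2 since Slc7a11 adds almost nothing, so it does not measure the FPKM ratio), and the median of the tested members between -0.22 (without ACSS2-flox replicate 1) and 0.19. Of all genes, 0 passed the adjusted threshold in the main limma fit, and 0 to 3 with each library left out. The 3 were Ifi27l2b, Ly6d and Smpd3, without ACSS2-HKO replicate 2. With the replicate number as a block 4 genes passed (Hamp2, Mup2, Upp2 and Ifi27l2b), none of them a member. Deviations of same-numbered libraries correlated at 0.013, 0.003 and -0.063, and those of differently numbered libraries at -0.170 to 0.154. So few libraries cannot show whether equal numbers mark a shared batch or pairing. Slc7a11 had too few fragments for the fit.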
